A study of Mus musculus with 14 samples.

Results

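ETS1 occupancy was mapped by CUT&RUN in mouse Th1 cells of a line labelled Ets1-SE-KO and of WT mice, and the genotypes were compared at an equal number of peaks per library. The 4 ETS1 peak lists held 87478 peaks on chromosomes 1 to 19 and X, of 336531 in all 14 libraries of the series. The 9000 peaks with the highest −log10 q of each list were compared, 36000 in all. This choice uses ranks within each library and no difference between genotypes, while most genes and regions named below were taken by their gap or rank. The Ets1-SE-KO group (KO below) was strain C57BL/6J-Ets1-SE-KO, with 2 libraries from 2 biological replicates, KO 1 and KO 2. The WT group was strain C57BL/6J, with 2 libraries labelled as technical replicates of 1 biological replicate, WT 1 and WT 2. In both groups, naive CD4+ T cells were taken from spleen by negative selection and cultured for 6 days on plate-bound anti-CD3 with soluble anti-CD28, IL-12 at 10 ng/mL and IL-2 at 1 ng/mL. SE is read here as super-enhancer, a dense cluster of enhancers, and the line as lacking such a cluster of Ets1. The labels do not spell out SE, and they give no coordinates of the deletion and no ETS1 protein level. They name no Cre or cell type for it, and the number of animals behind a library is not given in the sources used here.

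ETS1 is a transcription factor of the ETS family that is abundant in T cells and binds DNA around a GGAA core, often beside RUNX proteins. It is known for roles in T cell development, in signalling through the T cell receptor and in the Th1 programme, whose hallmark cytokine is interferon-γ. In CUT&RUN, an antibody directs a nuclease to its target in nuclei, and the released fragments pile up as peaks. The ETS1 antibody used was polyclonal, and its reaction with other ETS proteins was not tested here.

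Promoter windows of 300 bases, from 250 before to 50 after an annotated start, are shown for genes on which the results below turn. The sequences are from RefSeq on build GRCm38.p6 and are printed in the direction of the gene. Capitals mark CCGGAA, the ETS core with its usual CC before it, or TTCCGG, its reverse complement, and they extend to CCGGAAGT where the longer motif is present. Mynn encodes a zinc finger protein and Utp3 a ribosome biogenesis factor, and both had a peak over the window in all 4 libraries. Peaks in this paragraph are the 9000 compared per library. Nhp2 encodes a protein of H/ACA small nucleolar RNA particles, and its window had a peak in both KO libraries and in neither WT library. Slc25a20, the mitochondrial carnitine and acylcarnitine carrier, and the inner start of Runx1, a partner of ETS1, had a compared peak in both WT libraries and in neither KO library, with a lower-ranked peak in KO 1. The windows are Mynn at chr3:30601837-30602136 on the + strand, Utp3 at chr5:88554212-88554511 on the + strand, Nhp2 at chr11:51619523-51619822 on the + strand, Slc25a20 at chr9:108661886-108662185 on the + strand and Runx1 at chr16:92697280-92697579 on the − strand.
Mynn: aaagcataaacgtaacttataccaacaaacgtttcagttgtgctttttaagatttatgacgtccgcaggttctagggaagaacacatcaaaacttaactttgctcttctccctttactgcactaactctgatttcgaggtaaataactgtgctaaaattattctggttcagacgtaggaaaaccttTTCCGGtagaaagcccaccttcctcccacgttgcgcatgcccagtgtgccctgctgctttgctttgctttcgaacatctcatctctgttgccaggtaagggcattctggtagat
Utp3: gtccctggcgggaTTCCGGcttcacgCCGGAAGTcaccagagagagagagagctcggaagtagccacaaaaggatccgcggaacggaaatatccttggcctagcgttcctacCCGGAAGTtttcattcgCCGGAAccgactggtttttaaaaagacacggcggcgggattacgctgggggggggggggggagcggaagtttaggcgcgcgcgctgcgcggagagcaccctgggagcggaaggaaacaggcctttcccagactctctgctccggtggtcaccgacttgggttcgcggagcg
Nhp2: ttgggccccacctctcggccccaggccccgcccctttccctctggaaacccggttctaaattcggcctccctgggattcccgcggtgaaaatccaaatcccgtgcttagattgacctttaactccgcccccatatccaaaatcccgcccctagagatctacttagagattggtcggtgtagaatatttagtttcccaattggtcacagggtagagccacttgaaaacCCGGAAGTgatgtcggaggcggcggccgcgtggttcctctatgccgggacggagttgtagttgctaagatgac
Slc25a20: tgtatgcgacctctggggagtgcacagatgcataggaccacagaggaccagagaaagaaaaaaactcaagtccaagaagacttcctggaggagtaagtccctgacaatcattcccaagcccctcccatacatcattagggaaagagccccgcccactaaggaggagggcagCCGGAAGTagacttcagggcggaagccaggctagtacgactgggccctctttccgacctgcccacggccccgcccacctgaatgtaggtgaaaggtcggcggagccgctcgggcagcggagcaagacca
Runx1: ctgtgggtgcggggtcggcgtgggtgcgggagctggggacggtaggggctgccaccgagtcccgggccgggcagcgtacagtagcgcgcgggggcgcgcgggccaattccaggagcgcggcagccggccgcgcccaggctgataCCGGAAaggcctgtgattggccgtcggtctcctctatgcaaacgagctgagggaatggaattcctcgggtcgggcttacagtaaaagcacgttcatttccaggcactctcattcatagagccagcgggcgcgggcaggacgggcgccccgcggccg
With the start base as 0, the CCGGAA match of Mynn began at position -64 and that of Runx1 at position -106. The CCGGAAGT match began at position -23 in Nhp2, at position -79 in Slc25a20 and first at position -224 in Utp3. The Utp3 window held 4 CCGGAA matches, 2 of them part of CCGGAAGT.

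The lists differed greatly in length before the equal-number step. KO 1 listed 40705 peaks and KO 2 listed 9344, against 14013 in WT 1 and 23416 in WT 2. The 9000 compared were thus 22.1% of the KO 1 list and 96.3% of the KO 2 list, against 64.2% of the WT 1 list and 38.4% of the WT 2 list. The −log10 q at rank 9000 was 2.73 in KO 1 and 0.932 in KO 2, against 1.27 in WT 1 and 2.20 in WT 2, and the next peak had 2.73 and 0.931 in the KO libraries and 1.27 and 2.20 in the WT libraries. The compared peaks had a median width of 643 bp in KO 1 and 474 bp in KO 2, against 490 bp in WT 1 and 682 bp in WT 2. They covered 6.65 Mb and 5.12 Mb in KO 1 and KO 2, against 5.39 Mb and 7.29 Mb in WT 1 and WT 2. The longest list and the shortest list both belonged to KO, so list length did not follow genotype. Read counts are not part of these lists, and depth is therefore unknown. A peak list ranks sites within a library, and a general loss or gain of ETS1 at all sites would leave these ranks in place. In such bulk samples, fewer cells of a type and less ETS1 per cell cannot be told apart.

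ETS1 lay mostly at gene ends in both genotypes. The share of the 9000 peaks whose midpoint was within 2 kb of either end of a protein-coding gene was 75.8% in KO 1 and 70.5% in KO 2, against 67.5% in WT 1 and 69.7% in WT 2. The KO mean was 73.2 ± 3.72% and the WT mean 68.6 ± 1.55% (SD, n = 2 libraries each). The difference of 4.54 percentage points had p = 0.333 in an exact two-sided permutation test, the smallest p that 2 against 2 libraries allow. Both KO libraries lay above both WT libraries by a narrow margin for KO 2 against WT 2, and KO 1 stood apart. Without KO 1 the difference was 1.92 percentage points. The WT spread is between technical replicates, so p-values measure only the spread between these libraries.

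Peaks inside genes, away from the ends, were 16.1% in KO 1 and 19.8% in KO 2, against 21.6% in WT 1 and 19.5% in WT 2. These groups overlapped, with a difference of -2.63 percentage points (exact permutation p = 0.667). Between genes lay 8.13% and 9.68% of the peaks in KO 1 and KO 2, against 10.9% and 10.8% in WT 1 and WT 2. The difference was -1.92 percentage points (exact permutation p = 0.333), and the groups did not overlap. Close to annotated starts, on the chromosomes with start sites, 50.8% and 43.2% of KO 1 and KO 2 peaks had their midpoint within 250 bp, against 41.9% and 40.6% in WT 1 and WT 2. KO 1 again held the high value, and the exact permutation p was 0.333.

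The location of a peak followed its rank in every library. Of the first 1000 peaks, 90% in KO 1 and 88.3% in KO 2 were at gene ends, against 86.3% in WT 1 and 85.8% in WT 2. Of the last 3000 of the 9000, 60.3% and 56.7% were at gene ends in KO 1 and KO 2, against 49.6% and 54.9% in WT 1 and WT 2. In the whole lists the share was 34.7% in KO 1 and 69.8% in KO 2, against 55.2% in WT 1 and 44.1% in WT 2, an order that followed list length.

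**Figure D1:**
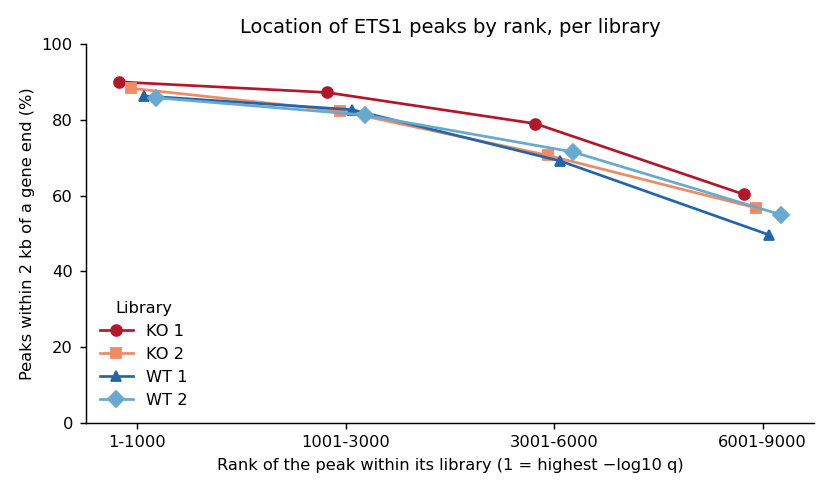
Percentage of ETS1 peaks within 2 kb of a gene end (y axis) in 4 ranges of rank within the library (x axis), with a line for each of KO 1, KO 2, WT 1 and WT 2. All 4 lines fall with rank, and KO 1 is the highest in each range, at 90% for the first 1000 peaks and 60.3% for the last 3000.

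Merging the 36000 peaks where they overlapped by at least 1 bp gave 15587 regions. Of these, 4593 (29.5%) held a peak of all 4 libraries. KO-only regions, with both KO libraries and neither WT library, numbered 408, which was 2.62% of all regions. WT-only regions numbered 393, or 2.52%. The other pairs of libraries shared 297 regions (KO 1 with WT 1), 434 (KO 1 with WT 2), 301 (KO 2 with WT 1) and 396 (KO 2 with WT 2) that the remaining libraries lacked. The KO-only and WT-only counts lay within the range of these 4 counts. In pairs of lists, 66.6% of KO 1 peaks overlapped a KO 2 peak, and 68.0% of WT 1 peaks overlapped a WT 2 peak. Between genotypes the same measure ran from 65.3% (KO 1 peaks in WT 1) to 68.5% (KO 2 peaks in WT 2), so libraries of the same genotype shared about as many peaks as libraries of different genotypes.

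Regions of all 4 libraries were at gene ends in 86.8% of cases. KO-only regions were there in 76.5% of cases (312 of 408), against 42.7% of WT-only regions (168 of 393). The gap between these classes moved with KO 1. Regions held only by KO 1 and WT 1 were at gene ends in 71.7% of cases, and those held only by KO 1 and WT 2 in 67.3%. Regions held only by KO 2 and WT 1 were there in 47.8% of cases, and those held only by KO 2 and WT 2 in 48.5%. Each pair that included KO 1 thus had a higher gene-end share than each pair without it.

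**Figure D2:**
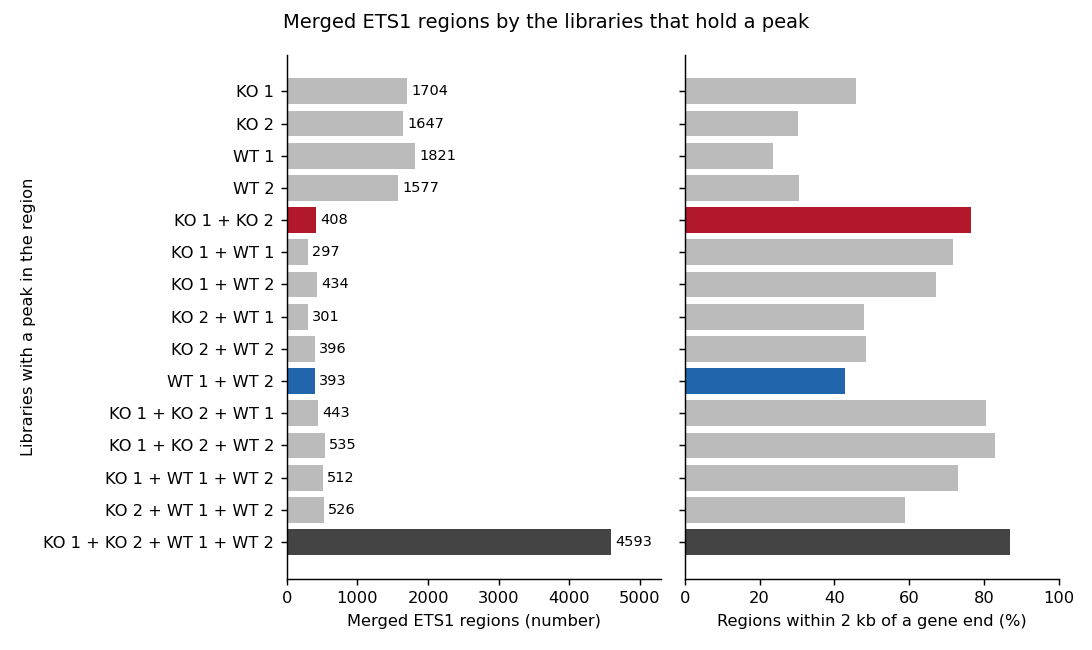
Number of merged ETS1 regions (left) and the percentage of them within 2 kb of a gene end (right) for each combination of libraries holding a peak, with KO-only in red, WT-only in blue and all 4 in dark grey. The 4593 regions of all 4 libraries outnumber any other combination, and the combinations of 2 libraries that include KO 1 have the higher gene-end percentages.

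Most regions of the genotype-only classes had a lower-ranked peak in the other genotype. Of the 408 KO-only regions, 352 (86.3%) had a peak at some rank of a WT list, 194 in WT 1 and 340 in WT 2. Of the 393 WT-only regions, 283 (72.0%) had a peak at some rank of the KO 1 list, and 20 also in the remainder of the short KO 2 list. That left 56 KO-only and 110 WT-only regions with no peak at any rank of the other genotype. Genotype-only regions also ranked low, as did the regions of the other incomplete combinations of libraries. The weakest library holding the region was within its first 3000 peaks for 5 of 408 KO-only and 14 of 393 WT-only regions. The same held for 425 of 10193 regions of the other combinations, against 1233 of 4593 regions of all 4 libraries. The median rank in that library was 7456 for KO-only, 7069 for WT-only, 7068 for other and 4932 for shared regions.

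The best-ranked regions of all 4 libraries at gene ends included Polr1b, a subunit of RNA polymerase I, with ranks 3 and 14 in KO 1 and KO 2 and ranks 1 and 9 in WT 1 and WT 2. Usp5, a deubiquitinase, ranked 7 and 4 in the KO libraries and 18 and 15 in the WT libraries. Mynn ranked 16 and 11 in the KO libraries and 15 and 25 in the WT libraries. Zfp866, Ccdc191, Mettl25, Mlst8 and N6amt1 completed the best 8, with a rank of 41 at most in any library. Mlst8 is a subunit of the mTOR complexes. Between genes, the best-ranked shared region lay 33423 bp from Pum2, with ranks 13 and 2 in KO 1 and KO 2 and ranks 5 and 4 in WT 1 and WT 2. The region 38394 bp from Csf2ra, at chr19:61266655-61267054, ranked 2 and 53 in the KO libraries and 42 and 67 in the WT libraries and was also a peak of the KO IgG control.

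The best-ranked KO-only regions at gene ends were at Mtrf1, a mitochondrial peptide chain release factor gene, with ranks 1553 and 1390 in KO 1 and KO 2, and at Nhp2, with ranks 1909 and 1084. Neither had a peak at any rank in WT. Srp68, a signal recognition particle protein, had ranks 2149 and 2060 in the KO libraries, no peak in WT 1 and a lower-ranked peak in WT 2. Vps13d, Zfp69, Cep85, Nudt18 and Mctp2 followed, each with a lower-ranked peak in WT 2, and Nudt18 and Mctp2 also in WT 1. The best-ranked WT-only regions at gene ends were at Ndufb3, a complex I subunit, with ranks 1516 and 2213 in WT 1 and WT 2, and Thg1l, a tRNA guanylyltransferase, with ranks 2029 and 2608. Ndufb3 and Zfp418 had no peak at any rank in KO. Thg1l, Srl, Cavin3, Amer1, 1700012B09Rik and Slc25a20 had a lower-ranked peak in KO 1 and none in KO 2.

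Between genes, the WT-only regions with the best ranks were 7710 bp from Pofut1 (ranks 978 and 970 in WT 1 and WT 2) and 47605 bp from Gng2 (ranks 1989 and 2098). A WT-only region at chr3:68676989-68677166, 13566 bp from Il12a, which encodes a subunit of IL-12, ranked 2221 in WT 1 and 217 in WT 2, with no peak at any rank in KO and an H3K27ac peak in 1 library. The leading KO-only regions between genes were 5087 bp from Gm8439 (ranks 4065 and 3023 in KO 1 and KO 2) and 110218 bp from Rgs3 (ranks 4137 and 2177). Neither of these had a peak at any rank in WT.

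Acetylated H3K27, a mark of active promoters and enhancers, was measured in separate libraries. An H3K27ac peak of all 4 H3K27ac libraries overlapped 95.1% of the regions shared by all 4 ETS1 libraries, 80.6% of KO-only regions and 62.6% of WT-only regions, beside 64.4% of all 15587 regions. No H3K27ac library had a peak at 6.86% of KO-only regions, against 15% of WT-only regions. The order of the classes was that of their gene-end shares. At gene ends alone, the H3K27ac overlap was 84.3% of KO-only regions and 64.3% of WT-only regions, beside 95.9% of shared and 79.8% of all regions there. Overlap was by 1 bp or more, and the median width at gene ends was 779 bp for KO-only, 604.5 bp for WT-only and 1111 bp for shared regions. The part of width in these overlaps was not tested. Peaks of CTCF, which marks boundaries and many promoters, were present in all 4 CTCF libraries at 82.9% of the shared regions. The share was 64.2% of KO-only and 50.6% of WT-only regions, beside 54.6% of all regions. The KO IgG control listed 285 peaks, which overlapped 128 shared, 3 KO-only and 4 WT-only regions. The WT IgG control listed 2 peaks and overlapped none of the regions.

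ETS motifs were counted in 21045 promoter windows of 17274 genes, on both strands. CCGGAAGT contains CCGGAA, which contains GGAA. The motif CCGGAA was in 18.9% of all windows, in 37.3% of windows under a region of all 4 libraries, in 27.6% under a KO-only region, in 34.9% under a WT-only region and in 8.54% under no region. CCGGAAGT was in 5.20% of all windows, in 11.8% under shared regions (554 of 4713), in 5.10% under KO-only regions (15 of 294), in 11.1% under WT-only regions (14 of 126) and in 1.51% under none (189 of 12478). Of the 3434 windows under regions of the other library combinations, 29.9% had CCGGAA and 9.38% had CCGGAAGT, which were also below the shared regions. GGAA alone, in 95.7% of all windows, did not separate the classes.

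Base composition moved with these classes. The median GC content was 63.3% under shared regions, 65% under KO-only, 58.8% under WT-only and 51.3% under no region. Among windows of 60 to 70% GC, CCGGAA was in 40.7% under shared regions, 25.4% under KO-only, 35% under WT-only and 15.7% under none. In the same range CCGGAAGT was in 13.5% under shared regions, 4.35% under KO-only (6 of 138), 5% under WT-only (2 of 40) and 2.91% under none. The KO-only values thus lay below the shared values for both motifs in this GC range, while the place of the WT-only value depended on the motif. Windows under the other library combinations were not counted by GC range. Over single libraries, CCGGAAGT was in 10.8% of windows with a KO 1 peak and 11.6% with a KO 2 peak, against 11.8% with a WT 1 peak and 11.4% with a WT 2 peak. The RUNX motif TGTGGT, contained in the longer TGTGGTTT, was in 10.3% of windows under shared regions and 17.3% under none, beside 14.7% of all. The AP-1 motif TGANTCA was in 3.44% of windows under shared regions and 9.28% under none, beside 7.04% of all. Among windows of 60 to 70% GC, TGTGGT was in 10.8% under shared regions and 11.3% under none. TGANTCA was in 3.23% and 5.25% of the same windows, so both differences were smaller in that range. These matches are letters in a window and no measure of binding at them.

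**Figure D3:**
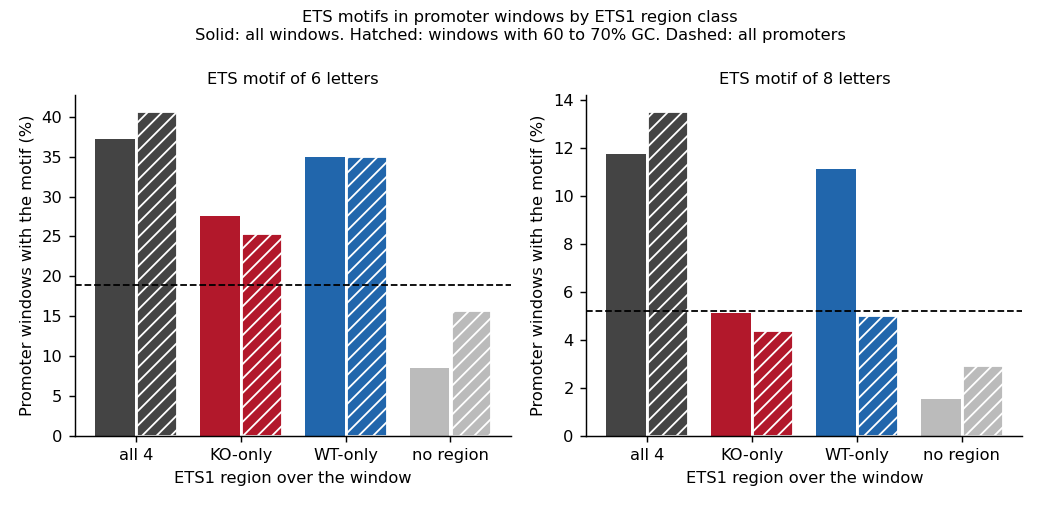
Percentage of promoter windows with CCGGAA (left) and CCGGAAGT (right) by the ETS1 region over the window, for all windows (solid bars) and windows of 60 to 70% GC (hatched bars), with the value over all promoters dashed. Windows under regions of all 4 libraries are the highest and windows under no region the lowest in both panels, with CCGGAAGT at 11.8% and 1.51%.

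At the Ets1 gene itself (chr9:32636241-32757820), which the name of the line gives, ETS1 peaks were present in all 4 libraries. With 10 kb flanks, the covered length, which is the sequence under the compared peaks, was 1252 bp in KO 1 and 2129 bp in KO 2, against 2602 bp in WT 1 and 2153 bp in WT 2. The KO values lay below the WT values, but KO 2 and WT 2 differed by 24 bp. The main peak began at base 32695696 in KO 1, where it ranked 1440, and it ranked 5781 in KO 2, 3314 in WT 1 and 6272 in WT 2. In the 250 kb beyond the gene's end, the H3K27ac lists covered 0 bp in both KO libraries, against 26280 bp in WT 1 and 25025 bp in WT 2. In this stretch H3K27ac was listed in the WT libraries alone. The ETS1 lists at any rank covered 0 bp of that stretch in KO 1, KO 2 and WT 1, and 2514 bp in WT 2. Fli1, a neighbouring ETS gene, had no compared peak in KO 1, KO 2 or WT 2 and a peak of 158 bp in WT 1.

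Per gene, 12532 of 21631 protein-coding genes had a compared ETS1 peak in the gene or its 10 kb flanks. The covered length of both KO libraries was above both WT libraries at 1196 genes (9.54%), and below both at 1815 genes (14.5%). At 9521 genes the groups overlapped, and the median KO minus WT difference over all genes was -34 bp. No gene could pass a test of 2 against 2 libraries, so "KO higher" and "WT higher" below mean only that the groups did not overlap. The excess of WT-higher genes moved with the covered length of the libraries, which was greatest in WT 2. Of the genes whose groups did not overlap, 39.7% were KO-higher as measured, 54.1% were after scaling to each library's total covered length, and 55.9% were when peaks were counted instead.

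Of the ETS family, 17 of 26 genes had a peak, 0 were KO-higher and 4 were WT-higher (23.5%, beside 14.5% of all genes). The median difference was -49.5 bp, beside -34 bp over all genes. The 4 were Ets1, Elf4, Erf and Gabpa. At Elf4 the covered length was 1260 bp in KO 1 and 187 bp in KO 2, against 1984 bp in WT 1 and 2046 bp in WT 2, the widest gap of the family. At Gabpa, the DNA-binding subunit of GABP, it was 1509 and 1754 bp in the KO libraries, against 1759 and 1976 bp in the WT libraries, a gap of 5 bp between KO 2 and WT 1. All 4 RUNX partner genes had a peak, and Runx1 was WT-higher. Runx1 had no compared peak in either KO library, against 1679 bp in WT 1 and 2690 bp in WT 2. Its inner start carried a peak of 1947 bp at rank 13541 in KO 1 and no peak at any rank in KO 2, against peaks at rank 5995 in WT 1 and 7911 in WT 2. With whole lists Runx1 had 5203 and 0 bp in KO 1 and KO 2, against 2359 and 3155 bp in WT 1 and WT 2, so the groups overlapped. Runx3, which acts in Th1 and CD8 T cells, had 4231 bp in KO 1 and 613 bp in KO 2, against 167 bp in WT 1 and 2313 bp in WT 2, with overlap of the groups.

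The T cell receptor carries the antigen signal through kinases and adaptors. Of 24 genes of this pathway, 23 had a peak, 0 were KO-higher and 8 were WT-higher (34.8%, beside 14.5% of all genes), with a median difference of -600 bp beside -34 bp. The 8 were Cd3e, Cd4, Lck, Fyn, Lat, Lcp2, Vav1 and Ptpn22. Lat, the membrane adaptor that links the receptor to its signalling enzymes, had 0 bp in KO 1 and 632 bp in KO 2, against 2351 bp in WT 1 and 2914 bp in WT 2. Its start carried a peak of 1169 bp at rank 10839 in KO 1, below the compared ranks, against peaks at rank 8409 in WT 1 and 3100 in WT 2. The KO 2 peak of 632 bp, at rank 8968, lay inside the stretch of both WT peaks and did not reach the 300-base window at the start. Vav1, a guanine nucleotide exchange factor, had 1420 and 1824 bp in KO 1 and KO 2, against 2152 and 4642 bp in WT 1 and WT 2. Lck, the kinase that starts the signal, had 1444 and 1022 bp in the KO libraries, against 1681 and 2710 bp in the WT libraries. At Cd3e, a chain of the receptor complex, the values were 0 and 298 bp in the KO libraries, against 412 and 870 bp in the WT libraries. Zap70, the kinase downstream of Lck, overlapped between groups, with 0 and 462 bp in KO 1 and KO 2 and 0 and 2755 bp in WT 1 and WT 2.

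The summed covered length of the receptor list was 15.2 kb in KO 1 and 26.4 kb in KO 2, against 21.3 kb in WT 1 and 48.4 kb in WT 2. The sums thus overlapped, and WT 2 held the high value. With 6000 peaks per library, 2 of 21 genes were WT-higher, or 9.52%, below the 14.1% of all genes at that setting. With whole lists 3 of 24 were, or 12.5%, beside 7.47% of all genes. Leaving out 1 library can add such genes and cannot remove one. The count was 18 of 23 without WT 1, where 45.7% of all genes were WT-higher, and 14 of 21 without KO 2, where 21.5% were.

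The T cell identity list holds transcription factors and surface molecules that set or mark the lineage. All 16 had a peak. Of these, 1 was KO-higher (6.25%, beside 9.54% of all genes) and 8 were WT-higher (50%, beside 14.5%). The median difference was -629.8 bp, beside -34 bp over all genes. The WT-higher genes were Lef1, Satb1, Ikzf1, Ikzf3, Myb, Cd27, Zbtb7b and Foxp1. Lef1, a TCF family factor of naive T cells, had 2641 bp in KO 1 and 3896 bp in KO 2, against 5281 bp in WT 1 and 5993 bp in WT 2. Foxp1, a factor of quiescent T cells, had 151 and 380 bp in the KO libraries, against 1837 and 2158 bp in the WT libraries. Zbtb7b, which encodes the CD4 lineage factor ThPOK, had 2095 and 2738 bp in KO 1 and KO 2, against 3724 and 6309 bp in WT 1 and WT 2. Themis, a factor of thymocyte selection, was the KO-higher gene, with 178 and 528 bp in the KO libraries and 0 bp in both WT libraries. The sums were 10.7 kb in KO 1 and 15.6 kb in KO 2, against 20.7 kb in WT 1 and 31.1 kb in WT 2, and here the groups did not overlap.

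With 6000 peaks per library the count was 4 of 14 (28.6%, beside 14.1% of all genes), and with 3000 peaks 1 of 8 (12.5%, beside 13.3%). With whole lists it was 2 of 16 (12.5%, beside 7.47%), none of them among the 8. H3K27ac was KO-higher at 13 of the same 16 genes, beside 49.9% of all genes with an H3K27ac peak. It was also KO-higher at 62 of 77 ribosomal protein, 15 of 18 housekeeping and 24 of 37 proteasome genes. A high share was thus not particular to the identity list. At Lef1, H3K27ac covered 31056 bp in KO 1 and 30819 bp in KO 2, against 19883 bp in WT 1 and 17555 bp in WT 2.

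**Figure D4:**
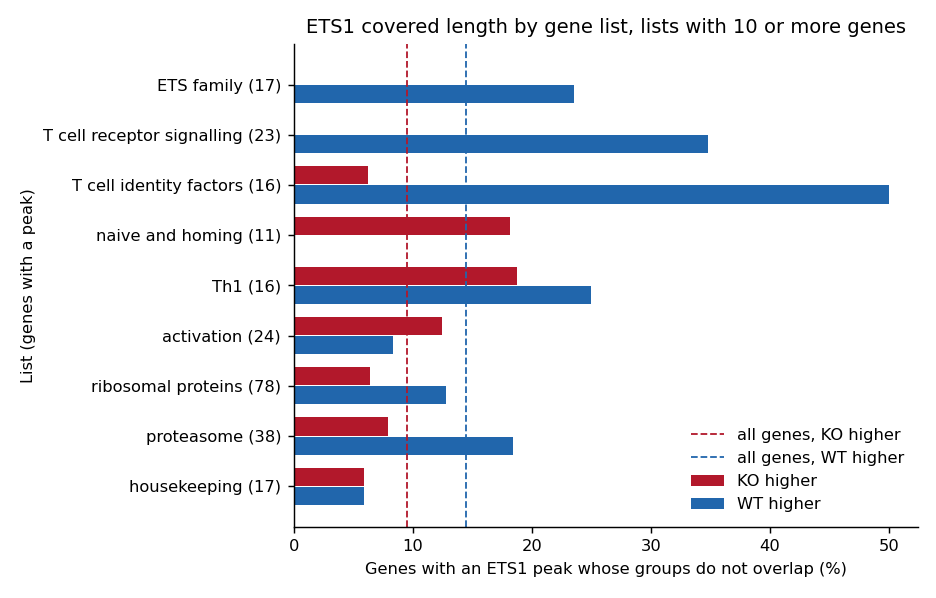
Percentage of the genes with an ETS1 peak in each list, of lists with at least 10 such genes, that were KO-higher (red) or WT-higher (blue), with the percentages over all genes dashed. T cell identity (50% WT-higher) and T cell receptor signalling (34.8%) exceed the 14.5% of all genes most. Th1 (25%), ETS family (23.5%) and proteasome genes (18.4%) also exceed it, while ribosomal protein and housekeeping genes lie near or below the dashed lines.

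The Th1 programme was mixed. Of 29 genes, 16 had a peak, 3 were KO-higher (18.8%, beside 9.54% of all genes) and 4 WT-higher (25%, beside 14.5%). Ifngr2, a chain of the interferon-γ receptor, had 306 bp in KO 1 and 262 bp in KO 2, and no peak at any rank in WT 1 or WT 2. Ifngr1, the other chain, had 488 and 354 bp in the KO libraries, against 158 and 214 bp in the WT libraries. Il12rb2, the inducible chain of the IL-12 receptor, had 432 and 416 bp in KO 1 and KO 2, against 334 and 0 bp in WT 1 and WT 2. The other receptor chain, Il12rb1, was WT-higher, with 581 and 536 bp in the KO libraries and 817 and 2581 bp in the WT libraries. Il2rb, a chain of the IL-2 and IL-15 receptors, had 376 and 528 bp in KO 1 and KO 2, against 1401 and 6413 bp in WT 1 and WT 2, and Hlx and Prdm1 were the remaining WT-higher genes. Tbx21, which encodes T-bet, the lineage factor of Th1 cells, had 0 and 1071 bp in the KO libraries and 1377 and 0 bp in the WT libraries, and Ifng had no ETS1 peak at any rank in any library.

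Lists of other fates were small, and their counts stand beside 9.54% KO-higher and 14.5% WT-higher over all genes. Of 5 Th2 genes with a peak, Il4ra and Rad50 were KO-higher and Stat6 was WT-higher. Il4ra, a chain of the IL-4 receptor, had the widest KO-higher gap of all genes, with 2671 bp in KO 1 and 3867 bp in KO 2, against 504 bp in WT 1 and 337 bp in WT 2. Over its start, WT 1 had a peak of 1781 bp at rank 10921 and WT 2 a peak of 4228 bp at rank 10379. With whole lists the groups overlapped, at 7677 and 5545 bp in the KO libraries and 3656 and 7537 bp in the WT libraries, and with 6000 peaks the difference was -252 bp. Stat6, which carries the IL-4 signal, had 3234 and 4389 bp in the KO libraries, against 6249 and 5475 bp in the WT libraries. Of 8 Treg genes with a peak, Foxp3, Ikzf2 and Ikzf4 were KO-higher and Ctla4 WT-higher. Ikzf4 had 2397 and 2416 bp in KO 1 and KO 2, against 1074 and 1980 bp in WT 1 and WT 2. Of 11 naive and homing genes, Ccr7 and Foxo1 were KO-higher and 0 WT-higher. Ccr7, a lymph node homing receptor, had 330 and 683 bp in the KO libraries, against 163 and 0 bp in the WT libraries. Of 6 Th17 genes none was in either class, and of 5 Tfh genes 1 was WT-higher.

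Of 24 activation genes with a peak, 3 were KO-higher (Myc, Egr2 and Nr4a1) and 2 WT-higher (Nfkb2 and Nfatc1). These were 12.5% and 8.33%, near or below the 9.54% and 14.5% of all genes. Myc, a growth regulator, had 2001 bp in KO 1 and 1940 bp in KO 2, against 572 bp in WT 1 and 667 bp in WT 2. With whole lists this order turned, to 2001 and 1940 bp in the KO libraries and 2683 and 3445 bp in the WT libraries. Some lists unrelated to T cells lay above or below the background. Ribosomal protein genes were KO-higher in 5 and WT-higher in 10 of 78 cases (6.41% and 12.8%). Proteasome genes were in 3 and 7 of 38 (7.89% and 18.4%), and housekeeping genes in 1 and 1 of 17 (5.88% each). Single ribosomal genes still had wide gaps. Rpl13a had 2056 and 1625 bp in KO 1 and KO 2, against 3539 and 4394 bp in WT 1 and WT 2. Without peaks that overlapped an IgG peak, its KO minus WT difference went from -2126 to -596.5 bp, and the groups were no longer separate. Rpl10a and Rps24 were KO-higher and Rpl23a was WT-higher.

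**Figure D5:**
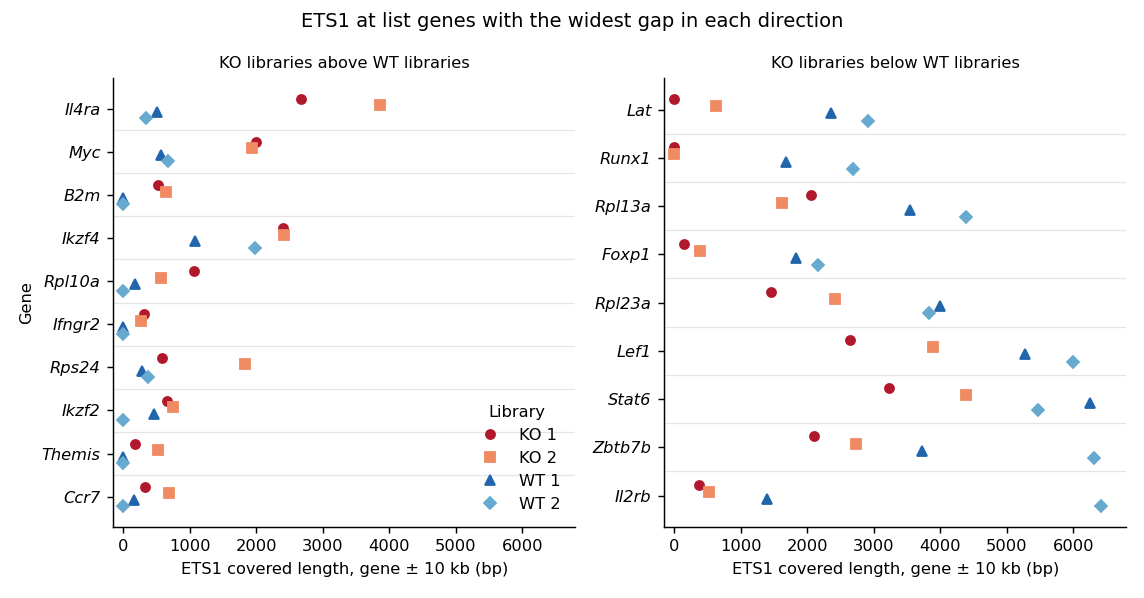
ETS1 covered length in the gene with 10 kb flanks (x axis, bp) in KO 1, KO 2, WT 1 and WT 2 for list genes with the widest gap between groups in each direction, up to 10 a panel. KO libraries lie to the right of WT libraries in the left panel and to the left in the right panel, which follows from the choice of genes.

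The genes with the next widest KO-higher gaps after Il4ra, over all genes, were chosen by the gap itself. Slc25a1, the mitochondrial citrate carrier, had 2356 bp in KO 1 and 2761 bp in KO 2, against 545 bp in WT 1 and 0 bp in WT 2. Over its start, WT 1 had a peak of 1829 bp at rank 11669 and WT 2 a peak of 1702 bp at rank 11277, and with whole lists the groups overlapped and the KO minus WT difference was 10.5 bp. Slc1a5, a glutamine transporter, had 1995 and 1749 bp in the KO libraries, against 550 and 0 bp in the WT libraries. Others were Nudt14, Utp3, Rufy3, Dop1b, Slc39a10 and Myc, and Utp3 and Rufy3 are neighbours whose windows overlap. With whole lists, 5 of the genes named here as KO-higher (Myc, Ikzf4, Ccr7, Slc39a10 and Rufy3) had a higher mean in WT. Of all 37 genes that the naming rule takes, 21 lost the separation of the groups with whole lists and 5 turned sign.

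The widest WT-higher gap was at Stat5b, a carrier of the IL-2 signal, with 1354 bp in KO 1 and 1070 bp in KO 2, against 3471 bp in WT 1 and 4155 bp in WT 2. Its mean was 1212 ± 201 bp in KO and 3813 ± 484 bp in WT (SD, n = 2 biological replicates in KO and 2 technical replicates in WT). Hivep2, a zinc finger regulator, had 494 and 610 bp in the KO libraries, against 2562 and 2884 bp in the WT libraries. Csrnp1 had 2069 and 1456 bp in KO 1 and KO 2, against 3855 and 4731 bp in WT 1 and WT 2. Ppp1r16b, a regulatory subunit of protein phosphatase 1, had 2011 and 1681 bp in the KO libraries, against 6108 and 3649 bp in the WT libraries. B9d2 and Tgfb1 are neighbours and share their compared peaks, with 1384 and 1257 bp in KO 1 and KO 2 and 3012 and 3210 bp in WT 1 and WT 2. The uncharacterised gene LOC102634078 had no compared peak in KO and 1626 and 1674 bp in WT 1 and WT 2. With whole lists the groups overlapped at Hivep2, Csrnp1, Ppp1r16b, B9d2 and Tgfb1, and they stayed separate at Stat5b and LOC102634078. With the number of peaks in place of their length, B9d2, Tgfb1 and Rpl23a had a higher mean in KO, and with 3000 peaks per library so did Stat5b, Ppp1r16b, Stat6 and Zbtb7b.

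The calls of the other antibodies at a gene were set beside those of ETS1. H3K27ac was KO-higher at 53.8% of the ETS1 KO-higher genes, at 52.2% of the ETS1 WT-higher genes and at 52.0% of the genes whose ETS1 values overlapped. It was WT-higher at 7.73%, 7.88% and 7.67% of the same groups. CTCF was KO-higher at 51.2% of the ETS1 KO-higher genes, 47.0% of the ETS1 WT-higher genes and 46.1% of the overlapping genes. Over all genes with an ETS1 peak, H3K27ac was KO-higher at 6067 and WT-higher at 896 of the 11629 with an H3K27ac peak. CTCF was KO-higher at 5667 and WT-higher at 649 of the 12119 with a CTCF peak. With genes lacking an ETS1 peak included, the shares were lower for KO-higher, at 49.9% for H3K27ac and 41.6% for CTCF. The WT-higher shares of that wider set were 8.07% for H3K27ac and 6.54% for CTCF. The 3 ETS1 classes thus had H3K27ac shares close to each other in both directions.

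As a check of the cells, H3K27ac peaks were present at all 11 T cell markers in all 4 H3K27ac libraries, with 115 and 109.5 kb in the KO libraries, against 82.3 and 80.9 kb in the WT libraries. Of 5 Th1 markers, 3 had H3K27ac in all 4 libraries, and Ifng and Cxcr3 had none in any. Of the markers of other cells, 7 of 8 B cell, 5 of 8 myeloid and 5 of 5 NK markers had no H3K27ac peak in any library. The same held for 7 of 8 non-haematopoietic, 1 of 2 CD8 T and 4 of 6 erythroid markers. In the B cell, myeloid, erythroid and non-haematopoietic lists, 1 marker each had H3K27ac in all 4 libraries. The non-haematopoietic list had 10.2 and 9.65 kb in the KO libraries, against 11.1 and 12.8 kb in the WT libraries. The part of other cells in the ETS1 differences was not tested.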

How the data were processed

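CUT&RUN libraries for ETS1 (4), with H3K27ac, CTCF and IgG libraries for comparison, were used as deposited peak lists of 9 columns, on build GRCm38 and aligned with BWA per the submitters' processing notes. How peaks were called, and with what control, is not given in the sources used here. By the layout of the deposited lists, column 5 is the authors' score, column 7 the authors' fold (a ratio over background), and columns 8 and 9 the authors' −log10 p-value and −log10 q-value of each peak. They were used only to rank peaks within a list.

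Peaks on chromosomes 1 to 19 and X were ranked by column 9, 9000 per library were kept, and overlaps of 1 bp were merged. For H3K27ac and CTCF, whole lists gave the overlaps with regions, and 24000 and 31000 peaks per library gave the values per gene. Genes and promoters came from RefSeq tables of GRCm38.p6, by symbol. Groups were taken from titles. With no counts and 2 libraries per group, exact permutation tests (scipy 1.17.1) were used for shares, and genes were described without a test. The members and the 20 gene lists were chosen with earlier results of these data known. Genes were named by the gap between groups, within the lists and over all genes (up to 10 per direction; a few of these are left unreported), with Ets1 and Fli1 always, and regions by rank (up to 8 per class at gene ends and between genes). Other list genes named were taken as all the non-overlapping members of a list or, for Tbx21, Ifng, Zap70 and Runx3, after their values were seen. The interval code was checked on simulated peaks. Alternatives are given in the closing section, of which scaled covered length and fixed peak widths were added after the data were seen.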

Additional observations from a re-analysis of the deposited data

How the results depend on the processing

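No paired analysis was possible because the WT numbers are technical and the KO numbers biological replicates, and no model was fitted. The gene-end, gene-body and intergenic differences (4.54, -2.63 and -1.92 percentage points, KO minus WT) moved by more than 1 SD, taking the group with the larger SD (KO for all 3), when peaks were ranked by fold, to 10.3, -5.76 and -4.54, and in no other alternative. Leaving out each library in turn gave 1.92 to 7.17, -4.48 to -0.772 and -2.69 to -1.14.

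KO-only regions (408) numbered 185 with 3000 peaks, 693 ranked by fold, 56 with no peak at any rank of the other genotype, and 847 to 2119 leaving out each library. WT-only regions (393) numbered 182 with 3000 peaks, 618 with whole lists, 110 with no peak at any rank, and 907 to 2247 leaving out each library. Such a leave-out has 1 library of a genotype, so a larger count follows from its construction, and a gene or region without overlap cannot lose its call that way. Regions of all libraries (4593) numbered 1233 with 3000 peaks, 2919 with 6000 and 2169 where peaks had to cover 50% of the region, and 5034 to 5127 leaving out each library.

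KO-higher genes (1196) numbered 582 with 3000 peaks, 636 with whole lists, 553 by number of peaks, 1815 with scaled length, 582 with fixed widths, and 1820 to 4595 leaving out each library. WT-higher genes (1815) numbered 942 with 3000 peaks, 437 by number of peaks, 456 with fixed widths, and 2613 to 5511 leaving out each library. KO-higher genes were 39.7% of those called, against 54.1% with scaled length, 55.9% by number of peaks, 56.1% with fixed widths and 50.6% ranked by fold. Leaving out a library gave 34.4% (KO 1), 63.7% (KO 2), 24.8% (WT 1) and 53.9% (WT 2). Of the 1815 WT-higher genes, 1005 were among the 1487 with 6000 peaks and 688 among the 1230 with whole lists.

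T cell receptor signalling genes that were WT-higher (8) numbered 2 of 18 with 3000 peaks and 2 of 21 with 6000. These were 11.1% and 9.52%, beside 13.3% and 14.1% of all genes. With whole lists the count was 3 of 24 (12.5%, beside 7.47%), and with 50 kb flanks 5 of 23 (21.7%, beside 15.9%). By number of peaks and with fixed widths it was 4 of 23 (17.4%, beside 3.49% and 3.64%). Leaving out each library gave 9 to 18. Of all genes, 37.6% were WT-higher without KO 1, 21.5% without KO 2, 45.7% without WT 1 and 25.5% without WT 2. T cell identity genes (8) numbered 1 of 8 with 3000 peaks (12.5%, beside 13.3% of all genes) and 4 of 14 with 6000 (28.6%, beside 14.1%). With whole lists the count was 2 of 16 (12.5%, beside 7.47%). By number of peaks and with fixed widths it was 3 of 16 (18.8%, beside 3.49% and 3.64%). Leaving out each library gave 8 to 11, beside the same shares of all genes as for the receptor list.

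The KO minus WT mean turned its sign in 17 of the 37 genes that the rule takes. With 3000 peaks it became 515 bp at Ets1, 316.5 at Stat6, 1162.5 at Zbtb7b, 390.5 at Stat5b and 320.5 at Ppp1r16b. With 6000 peaks it became -252 bp at Il4ra, -88.5 at Rpl10a, -188 at Rps24 and 162.5 at Ppp1r16b. With whole lists it became -1093.5 bp at Myc, -219 at Ikzf4, -788 at Ccr7, -308 at Slc39a10 and -41 at Rufy3. With 50 kb flanks it became -352.5 bp at Il4ra and -599 at Slc1a5. By number of peaks it became 0.5 at Rpl23a and 1.0 at B9d2 and Tgfb1, and with fixed widths 250 bp at Rpl23a and 500 at B9d2 and Tgfb1. The cause was not tested. The others did not turn sign, but several lost the difference or the separation of the groups. Runx1 (-2184.5 bp) had -155.5 bp with whole lists and -95 bp ranked by fold. Lat and Il2rb had 0 bp with 3000 peaks, Ifngr2 with 3000 and 6000, and Slc25a1 had 10.5 bp with whole lists. Among the WT-higher genes, the groups overlapped with whole lists at Runx1, Lef1, Foxp1, Il2rb, Stat6, Zbtb7b, Hivep2, Csrnp1, Ppp1r16b, B9d2 and Tgfb1. Without IgG-overlapping peaks the groups were no longer separate at Rpl13a (-596.5 bp) and Ppp1r16b (-1888.5 bp). Unknown depth and 2 libraries per group limit every value, and no gene could pass a test.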

Other observations

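Regions held by a single library made up a large part of the data. KO 1 alone held 1704 regions and KO 2 alone 1647, against 1821 in WT 1 alone and 1577 in WT 2 alone. Of these, 45.9% in KO 1 and 30.2% in KO 2 were at gene ends, against 23.6% in WT 1 and 30.6% in WT 2.

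The short list of erythroid markers, kept as a list of other cells, had 2 of 6 genes with an ETS1 peak, and both were KO-higher, beside 9.54% of all genes. Klf1, an erythroid transcription factor, had 1961 bp in KO 1 and 1132 bp in KO 2, against 862 bp in WT 1 and 1115 bp in WT 2. Epor, the erythropoietin receptor, had 679 and 1774 bp in the KO libraries, against 619 and 614 bp in the WT libraries. The gap at Klf1 was 17 bp between KO 2 and WT 2, and the haemoglobin genes Hba-a1 and Hbb-bt and the haem synthesis gene Alas2 had no ETS1 peak at any rank and no H3K27ac peak in any library. Of the other marker lists, 3 of 8 B cell, 2 of 8 myeloid, 2 of 8 non-haematopoietic, 0 of 2 CD8 T and 0 of 5 NK genes had a compared ETS1 peak, and none was in either class.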
